A study of Mus musculus with 6 samples.

Results

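Genes of the endothelium, the cells that line blood vessels, were followed in 6 tumors grown under the skin of mice, 3 given IFN-γ and 3 controls. They were taken by symbol (Pecam1, Cdh5, Kdr, Tek, Tie1, Eng, Vwf, Emcn, Esam and Plvap) and are 10 of 55487 genes in the count table. All 10 were found once each, and all 10 passed the filter on low counts. CT26.WT is a colon carcinoma cell line of the BALB/c mouse, wild type in the labels, and both groups were grown in male immunocompetent BALB/c mice bought at 4 weeks of age. Injections of 100 µL went into the tail vein, with IFN-γ at 100 ng/ml at intervals of 48 h for the IFN-γ group and PBS for the controls. The whole tumor was sequenced, so tumor cells, stroma, vessels and leukocytes share each library, and tumors of a single implanted line limit the model.

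Blood vessels of a tumor are lined by endothelial cells, which grow in mostly from the host. Vascular endothelial growth factors act on them through Kdr (VEGFR2), with Flt1 (VEGFR1) binding the same ligand, and angiopoietins act through the receptor Tek (TIE2), which pairs with Tie1. Eng (endoglin) is a co-receptor for ligands of the BMP and TGF-β family. Cdh5 (VE-cadherin), Pecam1 (CD31) and Esam sit at the contacts between endothelial cells, Vwf (von Willebrand factor) is stored and released for platelet adhesion, Emcn (endomucin) coats the luminal surface, and Plvap forms the diaphragms of endothelial fenestrae and caveolae. Pecam1 is also carried by leukocytes and platelets, Vwf by megakaryocytes and platelets, and Eng by macrophages and stromal cells, so these 3 genes are not limited to vessels.

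Libraries held 15759300 to 17559680 counts on genes, and 3 counts in a library correspond to 0.169 to 0.188 CPM (each count scaled by the TMM-adjusted size of its library), which covers counting error only. Across the 15114 genes tested, edgeR's quasi-likelihood test called 0.112% at an adjusted p under 0.05. IFN-γ tumor 3 stood apart from the other IFN-γ tumors. The summed level of 18 interferon response genes came to 7150, 7740 and 4700 CPM for IFN-γ tumors 1, 2 and 3, against 3690 to 4810 CPM in the controls. Results are therefore given with all 6 tumors and without IFN-γ tumor 3, where 3.18% of 15487 genes passed the threshold. IFN-γ tumor 3 was picked by its level of genes that respond to the treatment. The p-values without it are not independent of that choice and are given as description. The labels give 3 samples a group and do not name the animals, so p-values measure the spread between these samples.

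None of the 10 endothelial genes passed the adjusted threshold in all 6 tumors (edgeR's quasi-likelihood test, 0 higher and 0 lower, against 0.0794% of all genes called higher and 0.0331% called lower). DESeq2, which called 125 higher and 71 lower over all genes, also called 0 of the 10. So did limma-voom, which called 10 higher and 3 lower over all genes. Kdr, Cdh5 and Esam had lower values in all 3 IFN-γ tumors than in any control tumor, which was so for 3 of the 10 genes and for 7.5% of all genes tested. The same 3 genes had an unadjusted p under 0.05 with a lower level, against 4.44% of all genes. The other 7 genes overlapped between the groups. The median log2 fold change of the 10 genes was -0.161, with 7 of 10 below 0, beside 0.00152 and 49.6% below 0 over all genes tested. None of the 10 was above the controls in all 3 IFN-γ tumors, which held for 7.62% of all genes. Without IFN-γ tumor 3, none of the 10 passed either (0 higher, where 2.46% of all genes passed, and 0 lower, where 0.723% did). Of the 10 genes, 3 were then lower (6.69% of all genes) and 1 was higher (9.6%) at an unadjusted p under 0.05, and 6 were below 0 (53.1%). Groups did not overlap for 3 lower genes (15.6%) and for 2 higher genes, Eng and Vwf (18.1%). Summed over the 10 genes, the level was 395.0 ± 49.1 CPM for the controls and 336.0 ± 49.6 CPM with IFN-γ (SD, n = 3 each), and the sums overlapped. With no gene past the threshold, a fall of the set was not established. For the genes with lower values, fewer endothelial cells and less transcript per cell cannot be told apart in whole tumors.

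**Figure D1:**
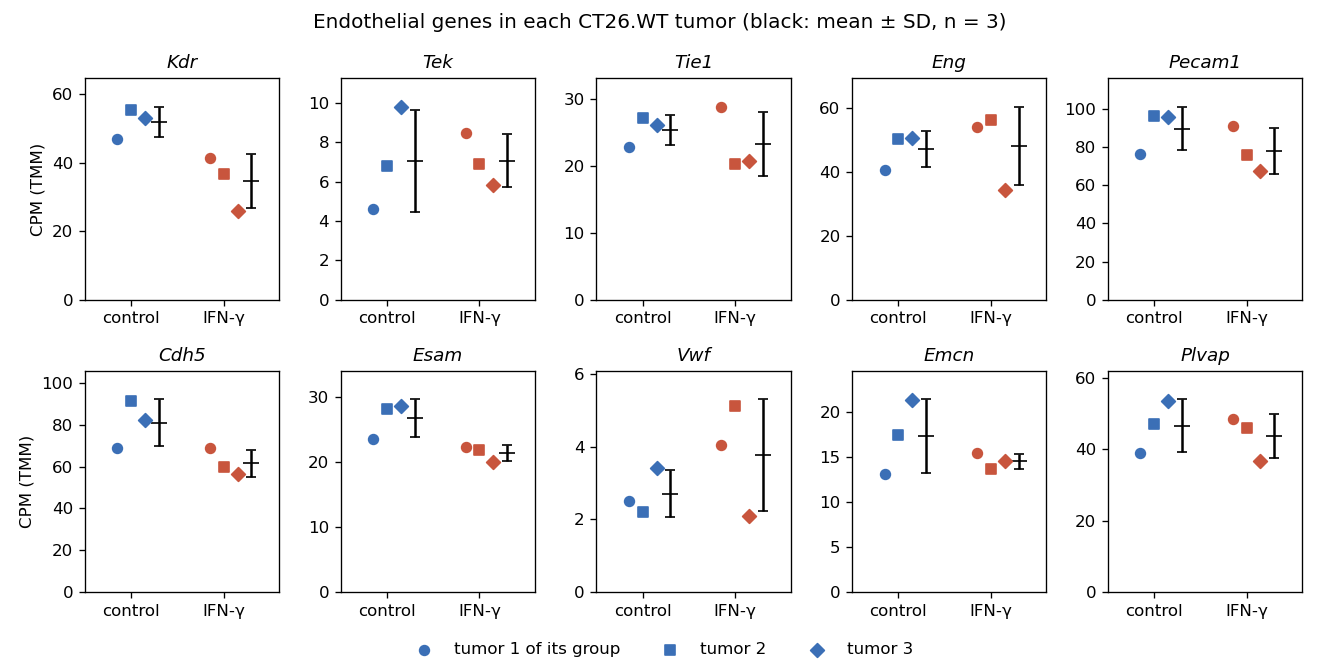
CPM of the 10 endothelial genes (vertical axes, each from 0) in the 3 control tumors (blue) and the 3 IFN-γ tumors (red), with symbols for tumors 1, 2 and 3 of each group and black bars for the mean ± SD. Kdr, Cdh5 and Esam show no overlap between the groups, with Kdr at 47.0 CPM or more in the controls and 41.3 CPM or less in the IFN-γ tumors.

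Among the receptors, Kdr had the largest difference. Kdr lies on the minus strand of chromosome 5 from 75932827 to 75978458 (GRCm38), with 29 merged exons in GENCODE M21, and encodes the main signaling receptor for VEGF-A. It was at 47.0, 55.5 and 53.0 CPM in control tumors 1, 2 and 3 and at 41.3, 36.6 and 26.0 CPM for IFN-γ tumors 1, 2 and 3. The highest IFN-γ tumor was below the lowest control. The group means were 51.8 ± 4.37 and 34.6 ± 7.86 CPM (SD, n = 3 each). The log2 fold change was -0.58 (standard error 0.16, 95% interval -0.95 to -0.22), or 0.668 times the control level, and the adjusted p over all genes was 0.30 (edgeR's quasi-likelihood test). Without IFN-γ tumor 3 it was -0.42 (standard error 0.10, adjusted p = 0.076, edgeR). Kdr passed the threshold in 1 of the 14 alternative fits, the one with no filter on low counts (adjusted p = 0.032, edgeR), and DESeq2 gave an adjusted p of 0.051.

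Tek, Tie1 and Eng showed no separation of the groups. Tek, on chromosome 4 from 94739289 to 94874976, was a low gene. Control tumors 1, 2 and 3 had 74, 120 and 171 counts, against 146, 113 and 94 for IFN-γ. This put it at 4.63, 6.77 and 9.77 CPM in the controls and at 8.47, 6.90 and 5.81 CPM in the IFN-γ tumors, with the IFN-γ values inside the range of the controls. The 95% interval of its log2 fold change ran from -0.65 to 0.65, so a change within that range in either direction was not excluded. Tie1, on the same chromosome from 118471191 to 118490061, was at 22.9, 27.2 and 26.2 CPM in the controls and at 28.8, 20.3 and 20.8 CPM in the IFN-γ tumors. IFN-γ tumor 1 held the highest Tie1 value of the 6 tumors and IFN-γ tumor 2 the lowest.

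Eng, on chromosome 2 from 32646595 to 32682669, varied within the IFN-γ group. It was at 40.6, 50.3 and 50.7 CPM in the controls, while IFN-γ tumors 1 and 2 reached 54.1 and 56.2 CPM and IFN-γ tumor 3 had 34.3 CPM. The IFN-γ tumors thus held the highest and the lowest values of the 6. The log2 fold change was 0.03 in all 6 tumors (95% interval -0.39 to 0.45, adjusted p = 0.98, edgeR) and 0.21 without IFN-γ tumor 3 (adjusted p = 0.39, edgeR). The macrophage list of 8 markers, led by C1qa and C1qc, had the same order of tumors within the group, at 2940, 3210 and 2230 CPM for IFN-γ tumors 1, 2 and 3 against 2100 to 2310 CPM in the controls, and none of the 8 markers was at 0. Its part in the Eng values was not tested. An exon of Eng overlaps Fpgs on the opposite strand, which had 321 to 407 counts a tumor, and the strandedness of the counting is not given in the sources used here.

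Kdr and Eng are set side by side below by the 250 bases before their start sites, because Kdr was lower in every IFN-γ tumor and Eng was not. The sequences are from RefSeq (GRCm38.p6), 5′ to 3′ on the strand of each gene, and capitals mark matches to AGGAAG, a core that ETS factors of endothelial cells can bind, read on both strands.
Kdr, minus strand, chr5:75978456-75978705: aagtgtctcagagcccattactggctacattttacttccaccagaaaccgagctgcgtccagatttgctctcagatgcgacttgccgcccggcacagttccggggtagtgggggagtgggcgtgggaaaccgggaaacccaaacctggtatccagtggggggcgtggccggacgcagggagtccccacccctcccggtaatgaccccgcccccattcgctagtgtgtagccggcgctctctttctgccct
Eng, plus strand, chr2:32646345-32646594: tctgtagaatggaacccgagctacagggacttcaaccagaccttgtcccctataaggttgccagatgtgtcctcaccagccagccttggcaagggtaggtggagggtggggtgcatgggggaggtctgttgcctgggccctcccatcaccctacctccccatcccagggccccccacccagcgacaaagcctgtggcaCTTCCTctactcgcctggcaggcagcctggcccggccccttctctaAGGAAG
Kdr had 0 matches in this window, and Eng had 2, at 52 and 6 bases before the start. AGGAAG was the only ETS sequence searched, so 0 matches do not mean that the Kdr window lacks ETS sites. The part of these matches in the levels of Kdr and Eng was not tested. RefSeq promoters were found for 5 of the 10 genes (Kdr, Tek, Tie1, Eng and Emcn). AGGAAG was also present once in Tie1 and at 2 places in Emcn, and 29.5% of 32851 promoter windows of this length held it. The ISRE core, present in 2.98% of the windows, and the GATA core AGATAA, in 9.99%, had 0 matches in the 5 windows. A match is a run of letters and was not tested for binding.

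Among the genes of endothelial contacts, Cdh5 and Esam separated the groups and Pecam1 did not. Cdh5, the adhesion molecule of endothelial adherens junctions on chromosome 8 from 104101625 to 104144511, was at 69.1, 91.4 and 82.2 CPM in the controls. It was at 68.7, 59.7 and 56.3 CPM in the IFN-γ tumors, so control tumor 1 and IFN-γ tumor 1 were nearly level. The log2 fold change was -0.39 (standard error 0.12, 95% interval -0.67 to -0.12, adjusted p = 0.35, edgeR's quasi-likelihood test). Esam, a tight junction molecule on chromosome 9 from 37528078 to 37538319, was at 23.5, 28.2 and 28.7 CPM in the controls and at 22.4, 21.9 and 20.0 CPM in the IFN-γ tumors. Its log2 fold change was -0.32 (standard error 0.11, 95% interval -0.58 to -0.07, adjusted p = 0.39, edgeR). Both genes kept a negative fold change under all 14 alternatives, with log2 values from -0.494 to -0.296 for Cdh5 and from -0.408 to -0.28 for Esam, and neither passed the threshold in any.

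Pecam1, on chromosome 11 from 106654217 to 106750628, had the most counts of the 10 genes, 1090 to 1710 a tumor. It was at 76.4, 96.4 and 95.7 CPM in the controls and at 90.8, 75.8 and 67.4 CPM in the IFN-γ tumors, so the groups overlapped. The log2 fold change was -0.20 (95% interval -0.50 to 0.10, adjusted p = 0.67, edgeR). The pan-leukocyte list of 7 markers, led by Arhgdib and Laptm5 and with none at 0, was at 795.0 to 927.0 CPM in the controls and at 1230, 1290 and 819.0 CPM for IFN-γ tumors 1, 2 and 3. The share of Pecam1 reads from leukocytes was not tested.

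Vwf, Emcn and Plvap had fold changes on both sides of 0, and none passed the threshold. Vwf, on chromosome 6 from 125546774 to 125686679, had few reads. Control tumors 1, 2 and 3 had 40, 39 and 60 counts, against 70, 84 and 34 for IFN-γ. The levels were 2.50, 2.20 and 3.43 CPM and 4.06, 5.13 and 2.10 CPM. IFN-γ tumors 1 and 2 were above every control and IFN-γ tumor 3 was below every control. The log2 fold change was 0.47 (standard error 0.35, 95% interval -0.33 to 1.28, adjusted p = 0.71, edgeR). It became 0.75 without IFN-γ tumor 3 (standard error 0.27, 95% interval 0.13 to 1.38, adjusted p = 0.21, edgeR). Of 13 platelet and megakaryocyte markers, Gp6 was at 0 in every tumor, 5 others had at most 3 counts in any tumor, and the list summed to 39.2 to 47.4 CPM in the controls and 33.4 to 38.6 CPM in the IFN-γ tumors. Pf4 and Itgb3 had the highest mean CPM of that list, and Pf4 is also made by macrophages.

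Emcn, on chromosome 3 from 137341067 to 137432185, was at 13.1, 17.4 and 21.3 CPM in the controls and at 15.4, 13.7 and 14.5 CPM in the IFN-γ tumors. The 3 IFN-γ values lay inside the range of the controls. Plvap, on chromosome 8 from 71497765 to 71511752, was at 38.9, 47.2 and 53.7 CPM in the controls and at 48.5, 45.9 and 36.7 CPM in the IFN-γ tumors. Its log2 fold change was -0.09 (95% interval -0.42 to 0.23, adjusted p = 0.87, edgeR).

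**Figure D2:**
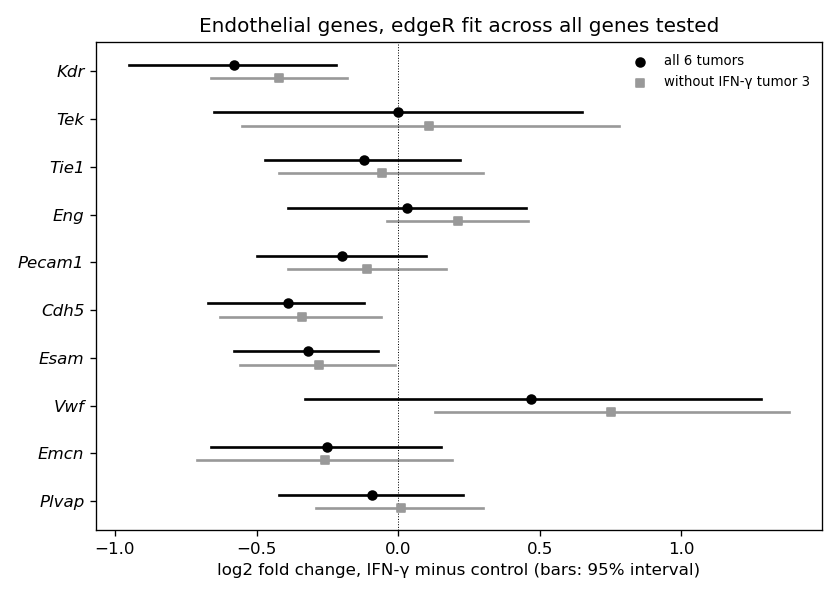
Log2 fold change of each endothelial gene (horizontal axis, IFN-γ minus control) with its 95% interval, for all 6 tumors (black circles) and without IFN-γ tumor 3 (gray squares). Intervals for Kdr, Cdh5 and Esam lie below 0 in both sets of tumors, from -0.95 to -0.22 for Kdr in all 6. Without IFN-γ tumor 3 the interval for Vwf lies above 0, from 0.13 to 1.38. None of the 10 genes passed the adjusted threshold in either set.

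The level of the set varied between tumors of the same group. IFN-γ tumor 3 held the lowest value of the 6 tumors for 7 of the 10 genes, where it held the lowest value for 21.3% of all genes tested. It was below the control mean for 10 of 10 genes on the log2 scale, and its summed level was 284.0 CPM. Control tumor 1 was also below that mean for 10 of 10 genes, with a sum of 339.0 CPM, close to the 342.0 CPM of IFN-γ tumor 2. Control tumors 2 and 3 summed to 423.0 and 425.0 CPM and held the highest value for 3 and 4 of the genes. IFN-γ tumor 1, at 383.0 CPM, lay between. In IFN-γ tumor 3 the 8 skin epidermis markers summed to 73.5 CPM, against 6.93 to 14.6 CPM in the other 5 tumors, and control tumor 3 had the highest skeletal muscle sum, 914.0 CPM against 141.0 to 482.0 CPM in the others. The part of adjoining tissue in the endothelial values was not tested.

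**Figure D3:**
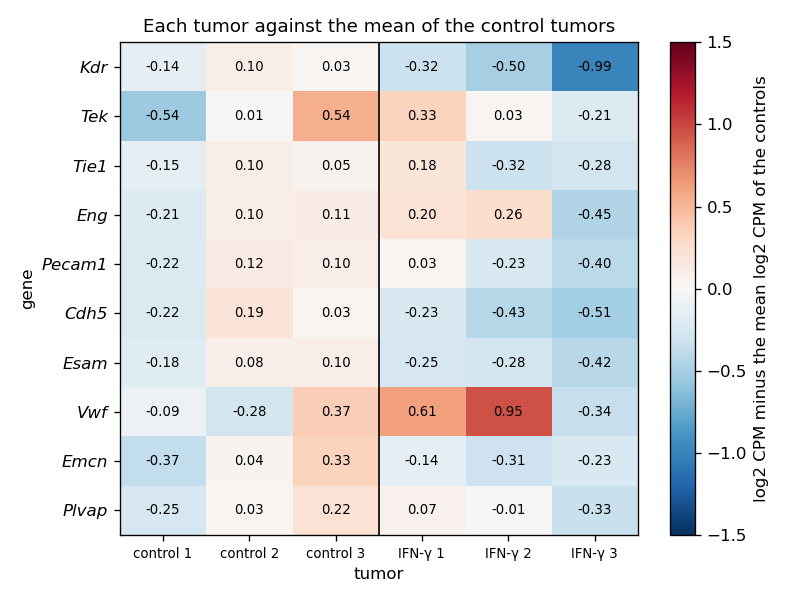
Log2 CPM of each endothelial gene (rows) in each tumor (columns) minus the mean log2 CPM of the 3 controls, in color and as numbers. Kdr is at -0.32, -0.50 and -0.99 in IFN-γ tumors 1, 2 and 3, Vwf is at 0.61, 0.95 and -0.34 in the same tumors, and control tumor 1 is below 0 for every gene.

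In each tumor every gene was also set against the sum of the other 9. Pecam1, Eng and Vwf are not limited to vessels, so these sums do not measure endothelial reads alone. Kdr was at 16.1, 15.1 and 14.3% of the other 9 in the controls and at 12.1, 12.0 and 10.1% in the IFN-γ tumors. The difference in mean log2 ratio was -0.42, and -0.33 without IFN-γ tumor 3. Plvap was at 13.0, 12.6 and 14.5% in the controls and at 14.5, 15.5 and 14.9% with IFN-γ, a log2 difference of 0.17, with control tumor 3 and IFN-γ tumor 1 nearly level. Eng was at 13.6, 13.5 and 13.6% in the controls and at 16.5, 19.6 and 13.7% in the IFN-γ tumors, so that IFN-γ tumor 3 lay next to the controls. These 3 of the 10 ratios did not overlap between groups, and each had p = 0.1 in a two-sided exact permutation test, the smallest that 3 against 3 allow (adjusted p over the 10 ratios 0.333). Cdh5 and Esam overlapped on this scale, at log2 differences of -0.19 and -0.09. The ratios share reads with each other, so a fall in one raises the rest.

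Levels between genes were compared per kilobase of merged exons (RPKM), which depends on the isoforms in the annotation. In the controls the order was Plvap at 23.5 ± 3.74, Cdh5 at 19.2 ± 2.67, Pecam1 at 14.4 ± 1.82 and Eng at 11.7 ± 1.42 RPKM (SD, n = 3 each), followed by Esam at a mean of 9.35 RPKM, with a lowest value of 8.2 RPKM. Kdr at 5.74 ± 0.484, Tie1 at 5.17 ± 0.457, Emcn at 3.19 ± 0.757, Tek at 1.50 ± 0.549 and Vwf at 0.169 ± 0.0399 RPKM followed (SD, n = 3 each). Ranges of the controls overlapped for Plvap and Cdh5, Pecam1 and Eng, and Kdr and Tie1, and for no other neighbors in that order. In the IFN-γ group, Kdr stood below Tie1, at 4.58, 4.05 and 2.88 RPKM against 5.86, 4.14 and 4.24 RPKM in IFN-γ tumors 1, 2 and 3. Kdr was above Tie1 in 3 of 3 controls and in 0 of 3 IFN-γ tumors, although the ranges of the levels overlapped in each group. The order of the other neighbors held in all 6 tumors, apart from Pecam1 and Eng in 1 IFN-γ tumor.

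Other vascular genes were read from lists of symbols. Where edgeR called 0 genes of a list in all 6 tumors, limma-voom called 0 too. Over all genes DESeq2 called 125 higher and 71 lower. From the lists it called 1 identity gene, 2 VEGF and angiopoietin genes and 1 Notch gene. It called 0 of the endoglin, junction, lymphatic and smooth muscle lists. Of 24 further endothelial identity genes, 24 were tested and 0 passed in all 6 tumors (edgeR's quasi-likelihood test, with 4 lower, against 4.44% of all genes, and 0 higher, against 5.74%, at an unadjusted p under 0.05). Their median log2 fold change was -0.23, with 18 of 24 below 0, against 49.6% of all genes. Flt1, the other VEGF-A receptor of endothelial cells, was at 39.3, 44.8 and 39.7 CPM in the controls and at 29.8, 29.3 and 29.4 CPM in the IFN-γ tumors. All 3 IFN-γ values were below the controls and close together, including IFN-γ tumor 3. With all 6 tumors the log2 fold change came to -0.48 (adjusted p = 0.13, standard error 0.09, edgeR), and to -0.49 without IFN-γ tumor 3, where it passed the threshold (adjusted p = 0.037, edgeR). S1pr1, the endothelial receptor for sphingosine 1-phosphate, was at 19.3, 23.6 and 21.9 CPM in the controls and at 15.8, 16.1 and 13.3 CPM in the IFN-γ tumors (log2 fold change -0.52, adjusted p = 0.26, edgeR). Esm1, a secreted proteoglycan, had a log2 fold change of -0.22 with all 6 tumors (edgeR adjusted p = 0.77) and passed the threshold without IFN-γ tumor 3 (-0.54, edgeR adjusted p = 0.013). It was at 301.0 to 321.0 CPM in the controls, then 217.0, 215.0 and 374.0 CPM for IFN-γ tumors 1, 2 and 3, and it was named after its values were seen. Cd34, at 812.0 to 1010 CPM, had the highest level of this list in CPM. In the controls Cd34 and Esm1 were at means of 117.0 and 149.0 RPKM, against 23.5 RPKM for Plvap, the highest of the 10 endothelial genes. Both were highest in IFN-γ tumor 3, where most of the 10 were lowest. The cells that Cd34 and Esm1 reads came from were not tested.

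Of the 18 VEGF and angiopoietin ligands and receptors, 17 were tested and 0 passed in all 6 tumors (edgeR, with 2 higher, against 5.74% of all genes, and 3 lower, against 4.44%, at an unadjusted p under 0.05), and the median log2 fold change was -0.123. Vegfd, a ligand of Flt4 that drives lymphatic growth, was at 21.1, 17.0 and 19.0 CPM in the controls and at 29.7, 35.6 and 29.6 CPM in the IFN-γ tumors. All 3 IFN-γ tumors were above all 3 controls, with a log2 fold change of 0.73 (standard error 0.12, adjusted p = 0.097, edgeR). It rose without IFN-γ tumor 3 (log2 fold change 0.77, adjusted p = 0.022, edgeR). Svep1, a matrix protein that binds Tie1, also rose there (log2 fold change 0.72, adjusted p = 0.022, edgeR), against 0.42 with all 6 tumors (edgeR adjusted p = 0.68). Its levels were 14.9 to 15.3 CPM in the controls and 22.9, 27.0 and 10.6 CPM for IFN-γ tumors 1, 2 and 3, and it was named after its values were seen. Vegfa, the principal ligand of Kdr, was at 114.0 to 140.0 CPM in the controls and 92.3 to 130.0 CPM with IFN-γ. Its log2 fold change of -0.17 had an adjusted p of 0.73 (edgeR), and it is named for its role.

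In the Notch list, 16 of 17 genes were tested and 0 passed in all 6 tumors (edgeR, with 3 lower, against 4.44% of all genes, and 0 higher, against 5.74%, at an unadjusted p under 0.05). Dll4, the Notch ligand of endothelial tip cells that VEGF induces, was at 17.6, 23.5 and 19.1 CPM in the controls and at 12.5, 11.2 and 12.4 CPM in the IFN-γ tumors. The log2 difference was -0.74 (edgeR adjusted p = 0.15, standard error 0.14), and Dll4 fell without IFN-γ tumor 3 by 0.77 on the log2 scale (adjusted p = 0.042, edgeR). Heyl, a Notch target of mural cells, was at 1.56, 3.55 and 2.91 CPM in the controls and at 0.871, 1.16 and 0.371 CPM in the IFN-γ tumors (log2 fold change -1.73, adjusted p = 0.29, edgeR). In the list around endoglin, 21 of 24 genes were tested, 0 passed, and 5 were higher, against 5.74% of all genes, and 0 lower, against 4.44%, at an unadjusted p under 0.05, with a median log2 fold change of 0.0415. Smad6, an inhibitor of BMP signaling, was at 1.25, 1.07 and 1.49 CPM in the controls and at 3.13, 2.57 and 2.54 CPM in the IFN-γ tumors (log2 fold change 1.11, adjusted p = 0.25, edgeR). Tgfbr1 was at 64.3 to 77.4 CPM in the controls and at 82.9 to 88.3 CPM in the IFN-γ tumors. In the junction list, 23 of 25 genes were tested and 0 passed (edgeR). At an unadjusted p under 0.05, 2 were lower, against 4.44% of all genes, and 0 higher, against 5.74%. Cgn was at 0 in every tumor, and the median log2 fold change was -0.0999. Cdh5 and Esam, already counted among the endothelial genes above, had the smallest p.

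Pericytes, the mural cells that wrap small vessels, had their own list. All 9 pericyte markers were tested and had a log2 fold change below 0, against 49.6% of all genes, with a median of -0.658. Of the 9, 1 passed, against 0.0331% of all genes called lower, and 5 were lower without overlap, against 7.5%. Abcc9, a potassium channel subunit of pericytes, fell from 20.8, 25.8 and 21.9 CPM in the controls to 8.53, 9.29 and 10.9 CPM in the IFN-γ tumors (log2 fold change -1.25, standard error 0.14, adjusted p = 0.029, edgeR's quasi-likelihood test). It passed without IFN-γ tumor 3 (adjusted p = 0.0088, edgeR) but in none of the 5 fits that left out control tumor 1, 2 or 3 or IFN-γ tumor 1 or 2, where 0 pericyte markers passed, nor with the replicate number as a block, where 0 passed too. DESeq2 called 3 of the 9, where it called 125 higher and 71 lower over all genes. The limma-voom fit called 1 of the 9, where it called 10 higher and 3 lower over all genes. Pdgfrb and Rgs5 had the highest mean CPM of the list. Pdgfrb was at 128.0 to 145.0 CPM in the controls and 99.3 to 136.0 CPM in the IFN-γ tumors, which overlapped. Rgs5 was at 61.0 to 79.2 CPM in the controls and 38.6 to 55.7 CPM with IFN-γ, which did not (log2 fold change -0.66, edgeR adjusted p = 0.23). Kcnj8, the channel partner of Abcc9, was at 8.74 to 12.7 CPM and 3.83 to 5.69 CPM (log2 fold change -1.16, edgeR adjusted p = 0.15). It passed without IFN-γ tumor 3 (log2 fold change -1.27, edgeR adjusted p = 0.028) and was named after its values were seen. The list summed to 243.0 to 283.0 CPM in the controls and to 207.0, 229.0 and 167.0 CPM for IFN-γ tumors 1, 2 and 3, so these sums did not overlap. Of 8 smooth muscle markers, 7 were tested and 0 passed, with a median of -0.117 that became 0.0749 without IFN-γ tumor 3. At an unadjusted p under 0.05 (edgeR), 2 were lower, against 4.44% of all genes, and 1 higher, against 5.74%. Smtn (smoothelin) was at 82.6 to 86.2 CPM in the controls and 65.7 to 73.8 CPM with IFN-γ (log2 fold change -0.26, edgeR adjusted p = 0.30), and Actg2, a smooth muscle actin, at 0.313 to 0.571 CPM and 0.804 to 0.871 CPM (log2 fold change 0.90, edgeR adjusted p = 0.46). Of 8 lymphatic markers, 4 were tested and 0 passed, and Prox1, which defines lymphatic endothelium, was at 0 to 0.451 CPM. Among the 4, 1 was lower, against 4.44% of all genes, and 0 higher, against 5.74%, at an unadjusted p under 0.05 (edgeR). Foxc2, a transcription factor of lymphatic valves, was at 2.34 to 3.06 CPM in the controls and 1.10 to 2.04 CPM with IFN-γ (log2 fold change -0.78, edgeR adjusted p = 0.42), and Flt4, the receptor for Vegfd, at 6.38 to 8.57 CPM and 4.51 to 5.75 CPM (log2 fold change -0.44, edgeR adjusted p = 0.50). The adipocyte list summed to 112.0 to 152.0 CPM in the controls and 158.0 to 213.0 CPM with IFN-γ, so these sums did not overlap. Most of each sum was Fabp4, whose own values overlapped. All 8 adipocyte markers were above 0, with a median log2 fold change of 2.17, and 7 were higher without overlap, against 7.62% of all genes. edgeR and limma-voom called 0 of them in all 6 tumors. DESeq2 called 6, where it called 125 higher and 71 lower over all genes. Without IFN-γ tumor 3 edgeR called 4 higher, against 2.46% of all genes. In all 6 tumors 7 were higher at an unadjusted p under 0.05 (edgeR), against 5.74% of all genes. Their part in the endothelial values was not tested. The fibroblast sums overlapped between the groups. Erythroid sums were 10.8 to 29.7 CPM in the controls and 52.7, 57.2 and 14.7 CPM for IFN-γ tumors 1, 2 and 3. They overlapped through IFN-γ tumor 3 alone. Without that tumor all 5 tested erythroid markers were higher without overlap, against 18.1% of all genes. edgeR then called 1 of them, against 2.46% of all genes called higher. The part of blood in the endothelial values was not tested.

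**Figure D4:**
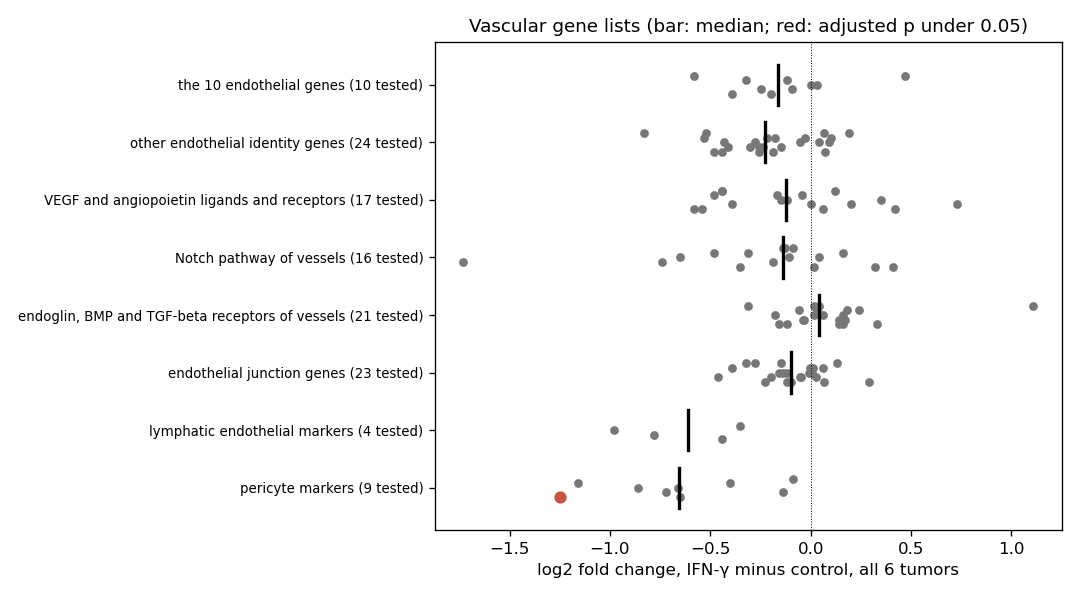
Log2 fold change (horizontal axis, IFN-γ minus control, all 6 tumors) of the tested genes of 8 vascular lists, one point per gene, with black bars at the median and red for an adjusted p under 0.05; Kdr, Flt1 and a few others are in more than one list. The median is -0.161 for the 10 endothelial genes and -0.658 for the pericyte markers, whose Abcc9 is the single red point.

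The genes whose levels followed the endothelial genes most closely over the 6 tumors were found by the root mean square difference between centered log2 CPM profiles and the mean profile of the 10 genes, which spanned 0.605 log2 units. Plvap itself came closest of 14055 genes at 0.0395, Pecam1 was at 0.0714, and Kdr and Vwf were far from the mean of their own set at 0.248 and 0.424. Each of the 10 is part of that mean, so their distances are not comparable with those of genes outside the set. Over all genes the median was 0.262, and a flat profile would be at 0.201. The 10 nearest genes outside the set were Lman2l, Susd2, Helz, Cd248, Tnfrsf25, Ramp2, Tsnax, Afg1l, Nhsl1 and Zfp85, at 0.061 to 0.0778. Ramp2, a subunit of the adrenomedullin receptor of endothelial cells, was at 8.25, 9.75 and 10.1 CPM in the controls and at 9.06, 9.53 and 6.8 CPM in the IFN-γ tumors. Cd248 (endosialin), a surface protein of pericytes and fibroblasts, was at 25.6, 27.9 and 33.4 CPM and at 27.9, 28.4 and 20.8 CPM.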

How the data were processed

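Total RNA of 6 subcutaneous tumors was sequenced. The deposited values are raw read counts for each gene, as whole numbers, and the submitters' processing notes name HISAT2 and mm10. The counting program, the annotation and the strandedness are not given in the sources used here. From the counts, CPM values were computed on TMM-adjusted library sizes and tested with edgeR 4.0.16 (R 4.3.3), with its default filter, its quasi-likelihood test, and Benjamini-Hochberg adjusted p-values over 15114 genes at a threshold of 0.05. Standard errors are the fold change over the square root of F, and 95% intervals use the same fit. DESeq2 1.42.0, limma 3.58.1 (voom), other factors, other filters, a replicate block and leaving out each tumor in turn were alternatives. Any 2 libraries differed by a chi-square of at least 6.17 per gene, so none was counted as a duplicate. Scripts were tested on simulated counts. Positions and exon lengths are from GENCODE M21. A further promoter motif that was searched is not reported here.

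Each endothelial gene was described. The rule for the other lists took genes past the threshold, or the 2 with the smallest p where none passed. For other cell types it added the markers of highest mean CPM and those at 0. The smallest-p genes are printed for the vascular lists alone. The rule also took the 10 nearest profiles with a mean of at least 1 CPM. A few genes named outside this rule are marked in the text or described by role. The genes, lists and tests were chosen with earlier results of these data known.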

Additional observations from a re-analysis of the deposited data

How the results depend on the processing

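Counts over all genes moved with the fit. With all 6 tumors 12 genes were higher and 5 lower (edgeR). Library size alone gave 7 higher, DESeq2 125 higher and 71 lower, limma-voom 3 lower, and no filter on low counts 150 higher and 70 lower. Leaving out a tumor gave 4 to 381 higher and 2 to 112 lower, the most without IFN-γ tumor 3. The replicate block gave 5 higher and 2 lower. Same-numbered tumors did not deviate together (correlations -0.24, -0.0047 and -0.22), so the numbers were not taken as pairs. Of the endothelial genes, 0 passed in either direction, and 1, Kdr, was lower with no filter on low counts. Of 140 values of the 10 genes under the alternatives, 124 kept direction and side, 1 passed (Kdr) and 15 reversed, all in genes with a log2 fold change near 0. Tek was -0.0279 with library size alone, -0.00906 with upper-quartile factors, -0.000701 with DESeq2's size factors, -0.000516 with DESeq2, -2.98e-05 with no filter and -0.00487 with the filter of 1 CPM. Eng was -0.0016 with library size alone. Leaving out a tumor gave -0.226 to 0.301 for Tek, -0.097 to 0.215 for Eng and -0.206 to 0.0144 for Plvap. The cause was not tested. Depth limits Vwf and Tek most, with as few as 34 and 74 counts a tumor.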
